A study of Mus musculus with 12 samples.

Results

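Mitochondrially encoded transcripts are the messenger RNAs copied from the small circular genome inside mitochondria. They were taken by name as 10 rows (ND1, ND2, ND4, ND5, ND6, CYTB, COX1, COX2, COX3 and ATP6) of a table of 35976 genes, of which 24484 had at least 1 read. The table lists 13 protein-coding mitochondrial genes, and the other 3 (ND3, ND4L and ATP8) are given by count only. They were chosen by gene name with earlier results of these data known, read levels in the same libraries included, so the p-values below, adjusted over all genes, describe these libraries and are no independent support.

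The series holds 12 libraries of retinal RNA in 4 groups of 3, which compare normoxia with oxygen-induced retinopathy (OIR) in 2 genotypes. The WT groups were C57BL/6 pups taken at postnatal day 15 (P15), kept in room air or, for OIR, given 75% oxygen between P7 and P12 with 3 further days in room air, the phase of relative hypoxia. The other 2 groups were labelled Caspase1 knockout (Casp1 KO), with the same 3 days after OIR, and neither their age nor the oxygen level is stated for them. The number of animals per library is not stated either, so p-values measure the spread between these libraries, which may be technical.

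Counted reads ran from 3391203 to 22815830 per library, and WT normoxia replicate 2 was the deepest. A gene without a read could still have had up to 3 reads, which is 0.131 to 0.885 per 1e+06 counted reads of its library and covers counting error only, as no molecular identifiers are described. Levels are given as CPM, reads scaled to a common library size with edgeR's TMM adjustment. The targeted gene went against its label, with 7 Casp1 reads over 6 WT libraries and 126 over 6 Casp1 KO libraries, so every genotype below is a label. Rod photoreceptor markers summed to between 55240 and 63090 CPM in all 12 libraries, as the retina label says. Replicates of a group were distinct libraries, as counts of any 2 of them gave 3.49 or more for chi-square divided by its degrees of freedom.

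The mitochondrial genome encodes core subunits of respiratory complexes I, III and IV and of ATP synthase, while all other subunits come from the nucleus. Both of its strands are copied as long RNAs that are cut into messages, mostly at the transfer RNAs between them, and most of the messages then receive a poly(A) tail. The retina, and its photoreceptors above all, is known for a very high demand for oxygen and ATP.

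ND1, ND2, ND4, ND5 and ND6 encode subunits of complex I, which takes electrons from NADH. CYTB encodes the cytochrome b of complex III, COX1, COX2 and COX3 encode the catalytic core of cytochrome c oxidase (complex IV), and ATP6 encodes the proton channel subunit of ATP synthase. In the GENCODE vM21 annotation of GRCm38, each is 1 uninterrupted coding exon on the circular chromosome M. ND1 lies from 2751 to 3707, ND2 from 3914 to 4951, COX1 from 5328 to 6872, COX2 from 7013 to 7696, ATP6 from 7927 to 8607 and COX3 from 8607 to 9390. ND4 follows from 10167 to 11544, ND5 from 11742 to 13565 and CYTB from 14145 to 15288, all on the plus strand, and ND6, from 13552 to 14070, is the only member on the minus strand.

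The last 75 coding bases of 6 members are shown because the libraries read from the 3' end with 75-base reads, and because nuclear copies of the mitochondrial genome share some of these ends exactly. The sequences come from the GENCODE vM21 transcripts (GRCm38), 5' to 3' on the plus strand. Capitals mark the bases that are identical in 1 unbroken run to an annotated nuclear pseudogene.
ND1: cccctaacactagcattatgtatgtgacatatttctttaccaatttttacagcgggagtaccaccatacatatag
ND4: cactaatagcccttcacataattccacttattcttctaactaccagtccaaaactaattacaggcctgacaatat
COX1: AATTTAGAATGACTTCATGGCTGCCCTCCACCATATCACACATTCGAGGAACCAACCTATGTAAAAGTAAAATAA
COX2: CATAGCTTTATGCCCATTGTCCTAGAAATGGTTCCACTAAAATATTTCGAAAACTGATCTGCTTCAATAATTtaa
ATP6: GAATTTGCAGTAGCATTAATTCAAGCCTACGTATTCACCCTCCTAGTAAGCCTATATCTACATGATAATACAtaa
COX3: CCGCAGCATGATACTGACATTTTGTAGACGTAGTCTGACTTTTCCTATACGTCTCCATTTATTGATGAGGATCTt
The ends of ND1, at chrM:3633-3707, and of ND4, at chrM:11470-11544, held no such run. All 75 bases of the COX1 end, at chrM:6798-6872, were shared with the pseudogene Gm29216, 72 of the COX2 end (chrM:7622-7696) with Gm28661, 72 of the ATP6 end (chrM:8533-8607) with Gm10925 and 74 of the COX3 end (chrM:9316-9390) with Gm28437. ND4, COX3 and CYTB each ended 1 base past their last whole codon, a known feature of mitochondrial messages, whose stop codon is completed by the poly(A) tail.

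The members split into 7 that carried 4883 or more reads in every library and 3 that were almost empty. Over the 12 libraries together, ND2 had 411034 reads, ND4 383742, ND1 358236, CYTB 275889, ND5 148287, ND6 124228 and COX1 98503. ATP6 had 24 reads in all, COX3 7 and COX2 5, and the 5 COX2 reads were all in Casp1 KO OIR replicate 3. The 3 mitochondrial genes outside the named set were as empty, with 19 reads for ND3, 2 for ATP8 and 0 for ND4L, each summed over 12 libraries. With so few reads, no fold change is given for ATP6, COX3 or COX2.

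Identity to nuclear pseudogenes followed most of this split. Of all windows of 75 bases in the COX2 coding sequence, 607 of 610 (99.5%) were found exactly in another annotated transcript, as were 604 of 607 (99.5%) for ATP6 and 709 of 710 (99.9%) for COX3. No window of ND1, ND6 or CYTB was found elsewhere, 29 of 1750 (1.66%) were for ND5, and 55 of 964 (5.71%) were for ND2. All 55 of ND2 were among the 226 windows nearest its 3' end, and none of those of ND5 were. In ND4, 802 of 1304 windows (61.5%) were shared, but none of the 226 windows nearest its 3' end.

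COX1 went against the pattern, and ATP8 could not be placed in it. COX1 shared 586 of its 1471 windows (39.8%) and all 226 nearest its 3' end, and still had 4883 to 29822 reads per library. ATP8 shared none of its 130 windows and had 2 reads, but only annotated transcripts were searched. The matches lie mostly in 1 block of 7 unprocessed pseudogenes on the minus strand of chromosome 1, from 24611535 to 24616197 of GRCm38. In it, 233 bases from 24614652 to 24614884 separate the copy of ATP6 from that of COX2. On chromosome M, ATP8 follows COX2, from 7766 to 7969, and runs 43 bases into ATP6. Any part of the 233 bases outside annotated transcripts was not searched for ATP8. ND4L, from 9877 to 10173, runs 7 bases into ND4 on the same strand. Reads come from 3' ends, and whether ATP8 and ATP6, or ND4L and ND4, share a message was not tested. How reads that match several places were treated is not given in the sources used here, and the part of this identity in the counts was not tested.

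**Figure D1:**
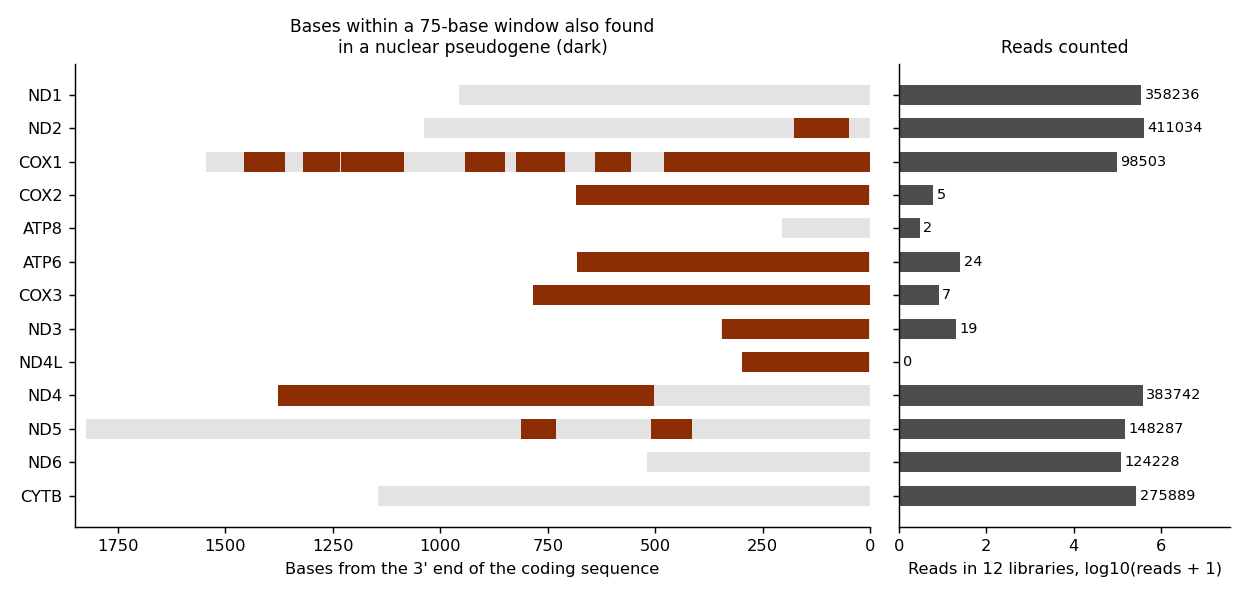
The left panel draws each of the 13 mitochondrial coding sequences as a bar by distance in bases from its 3' end, dark where a 75-base window is also found in a nuclear pseudogene, and the right panel gives its reads summed over 12 libraries as log10(reads + 1). The rows that are dark over nearly their whole length (COX2, ATP6, COX3, ND3 and ND4L) have 24 reads or fewer, while COX1 is dark at its end and has 98503, and ATP8 is pale and has 2.

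The 10 genes together took 1.98% to 2.76% of a library's counted reads, and a smaller share in OIR than in normoxia under both labels. The summed share was 2.46%, 2.53% and 2.59% in the WT normoxia libraries, a mean of 2.52% ± 0.0626 (SD, n = 3). In WT OIR it was 1.98%, 2.05% and 2.42%, a mean of 2.15% ± 0.237 (SD, n = 3). Replicate 3 was well above replicates 1 and 2 but still below every normoxia library.

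In Casp1 KO normoxia the share was 2.64%, 2.76% and 2.65%, a mean of 2.68% ± 0.0696 (SD, n = 3). In Casp1 KO OIR it was 2.05%, 2.14% and 2.09%, a mean of 2.09% ± 0.0443 (SD, n = 3). The OIR mean was 0.851 times the normoxia mean under the WT label and 0.781 times under the Casp1 KO label, and in neither did the 2 conditions overlap. Between the labels, Casp1 KO normoxia lay above WT normoxia with no overlap, at 1.06 times the mean, while the OIR groups overlapped. No test is given for a sum over named genes. In whole retina, fewer cells of a type and less mitochondrial RNA per cell cannot be told apart.

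**Figure D2:**
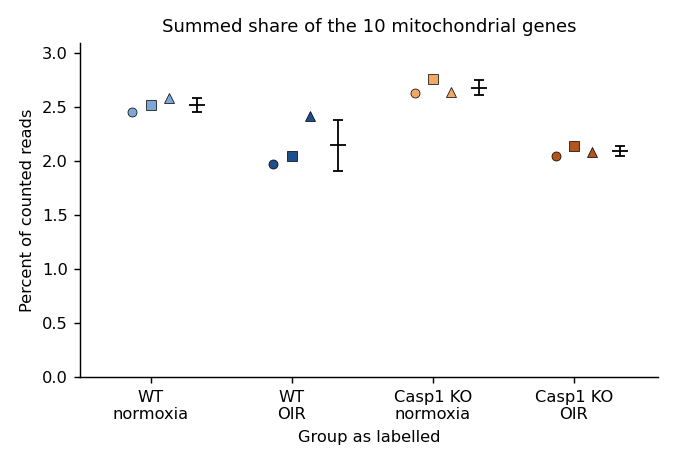
The percent of each library's counted reads on the 10 genes, with circles, squares and triangles for replicates 1, 2 and 3 and black bars for the mean and SD of 3 libraries. Every OIR library lies below every normoxia library, and WT OIR replicate 3, at 2.42%, lies closest to them.

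Summed markers of retinal cell types also differed between these libraries. The 7 retinal ganglion cell markers, all detected, summed to 2686 to 2899 CPM in WT normoxia and 1320 to 1653 in WT OIR, and to 2925 to 3148 in Casp1 KO normoxia and 1608 to 1653 in Casp1 KO OIR. The 7 amacrine cell markers summed to 1290 to 1369 and 772 to 855 CPM in WT normoxia and OIR, and to 1215 to 1313 and 900 to 921 under the Casp1 KO label. In WT OIR 5 of these 7 were called lower (edgeR adjusted p under 0.05), and all 7 fitted differences were below 0. In Casp1 KO OIR 1 was called lower and only 3 of 7 were below 0, so that sum does not stand for the single markers. Of all genes, 2.29% and 2.03% were called lower in these comparisons. The 8 Muller glia markers, summed, were lower in WT OIR (2174 to 2309 CPM) than in WT normoxia (2777 to 2925) and higher in Casp1 KO OIR (2880 to 3099) than in Casp1 KO normoxia (2005 to 2120). WT OIR replicate 3, with the highest mitochondrial share of its group, had the lowest ganglion cell sum, 1320 CPM against 1626 and 1653, and the lowest red blood cell sum, 90.9 CPM against 277 and 397. The 5 retinal pigment epithelium markers summed to 685 to 719 CPM in Casp1 KO normoxia and 1035 to 1104 in Casp1 KO OIR, and the 6 lens markers to 334 to 349 and 562.5 to 666. In WT the pigment epithelium sums were 630 to 682 in normoxia and 709.5 to 752 in OIR, and the lens sums overlapped. Of the 5 pigment epithelium markers, 0 were called higher and 1 lower in WT OIR, and 3 higher and 0 lower in Casp1 KO OIR. The part of these cells in the mitochondrial values was not tested.

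Under the WT label, 3 of the 7 members with reads fell in OIR and none rose, against 3.88% of all 22853 genes called in this comparison, 1.58% higher and 2.29% lower. ND1 was at 5306, 5372 and 5260 CPM in normoxia and at 3469, 3563 and 4404 CPM in OIR. Its 2 conditions did not overlap, and it fell by 28.8% in the fit (log2 fold change -0.49, SE 0.10, edgeR quasi-likelihood adjusted p = 0.000118). ND2 was at 5636, 6547 and 6109 CPM in normoxia and at 4387, 3979 and 5125 CPM in OIR. ND2 likewise did not overlap, and fell by 26.8% (log2 fold change -0.45, SE 0.10, edgeR adjusted p = 0.000505).

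CYTB was at 4197, 3693 and 4327 CPM in WT normoxia and at 2487, 3037 and 3922 CPM in WT OIR. Replicate 3 of OIR reached into the normoxia range, and the fall of 0.38 on the log2 scale (SE 0.10, edgeR adjusted p = 0.00866) was lost in 5 of 14 alternatives, among them DESeq2 (adjusted p = 0.124) and the filterByExpr filter (edgeR adjusted p = 0.131). The other 3 were fits without WT normoxia replicate 1 or 3 or without WT OIR replicate 1, with edgeR adjusted p of 0.130, 0.197 and 0.294.

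The other 4 members were not called under the WT label. ND4 was at 4662, 5305 and 5223 CPM in normoxia and at 4484, 4457 and 5282 CPM in OIR, a log2 difference of -0.11 (SE 0.10, edgeR adjusted p = 0.669). Without WT OIR replicate 3 that difference was -0.19 and passed the test (edgeR adjusted p = 0.0403). ND5, the long complex I subunit gene next to ND6, was at 1777, 2016 and 1940 CPM in normoxia and at 2122, 1918 and 2505 CPM in OIR, a log2 difference of 0.18 (SE 0.11, edgeR adjusted p = 0.500). ND6 and COX1 differed by 0.04 each on the log2 scale (SE 0.11 for both), and both were below 0 without WT OIR replicate 3, at -0.05 and -0.15.

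The 7 members moved unevenly in WT OIR. Their log2 differences ran from -0.49 for ND1 to 0.18 for ND5, with a median of -0.11 beside 0.04 over all genes tested. CPM of the conditions did not overlap for 2 of 7, where 16.7% of all genes did not overlap.

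Under the Casp1 KO label, 5 of the 7 members fell in OIR and all 7 fitted differences were below 0, against 4.64% of 22387 genes called in this comparison, 2.61% higher and 2.03% lower. ND1 was at 5316, 5427 and 5374 CPM in normoxia and at 3923, 4079 and 3975 CPM in OIR; the conditions were far apart. It fell (log2 fold change -0.42, SE 0.05, edgeR adjusted p = 2.24e-12). ND2 was at 5906, 5602 and 5738 CPM in normoxia and 4256, 4698 and 4178 CPM in OIR, and fell by 23.1% (log2 fold change -0.38, SE 0.05, edgeR adjusted p = 1.39e-10).

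ND4 was at 5860, 6214 and 5816 CPM in Casp1 KO normoxia and at 4407, 5206 and 4417 CPM in OIR. The conditions did not overlap, though OIR replicate 2 was well above the other 2, and ND4 fell by 20.8% (log2 fold change -0.34, SE 0.05, edgeR adjusted p = 1.89e-08). CYTB, the complex III member, was at 4026, 4488 and 4317 CPM in normoxia and 3201, 3280 and 3365 CPM in OIR, and fell by 22.6% (log2 fold change -0.37, SE 0.05, edgeR adjusted p = 4.05e-09). ND5 was at 2229, 2100 and 1911 CPM in normoxia and 1779, 1631.5 and 1721 CPM in OIR, and fell (log2 fold change -0.27, SE 0.06, edgeR adjusted p = 0.000701).

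ND6 and COX1 had the smallest differences under the Casp1 KO label. ND6 was at 1862, 1966 and 1930 CPM in normoxia and 1756, 1455 and 1927.5 CPM in OIR, which overlapped (log2 difference -0.15, SE 0.06, edgeR adjusted p = 0.171). Without OIR replicate 3 it passed the test at -0.26 (edgeR adjusted p = 0.00457). COX1 was at 1396, 1418.5 and 1333 CPM in normoxia and 1245, 1132 and 1237 CPM in OIR, which did not overlap (log2 difference -0.19, SE 0.07, edgeR adjusted p = 0.0779). COX1 passed the test in 7 of 14 alternatives, among them DESeq2 (adjusted p = 0.00542) and edgeR without Casp1 KO OIR replicate 3 (adjusted p = 0.0465). For 6 of the 7 members the conditions did not overlap, where 17.1% of all genes did not.

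**Figure D3:**
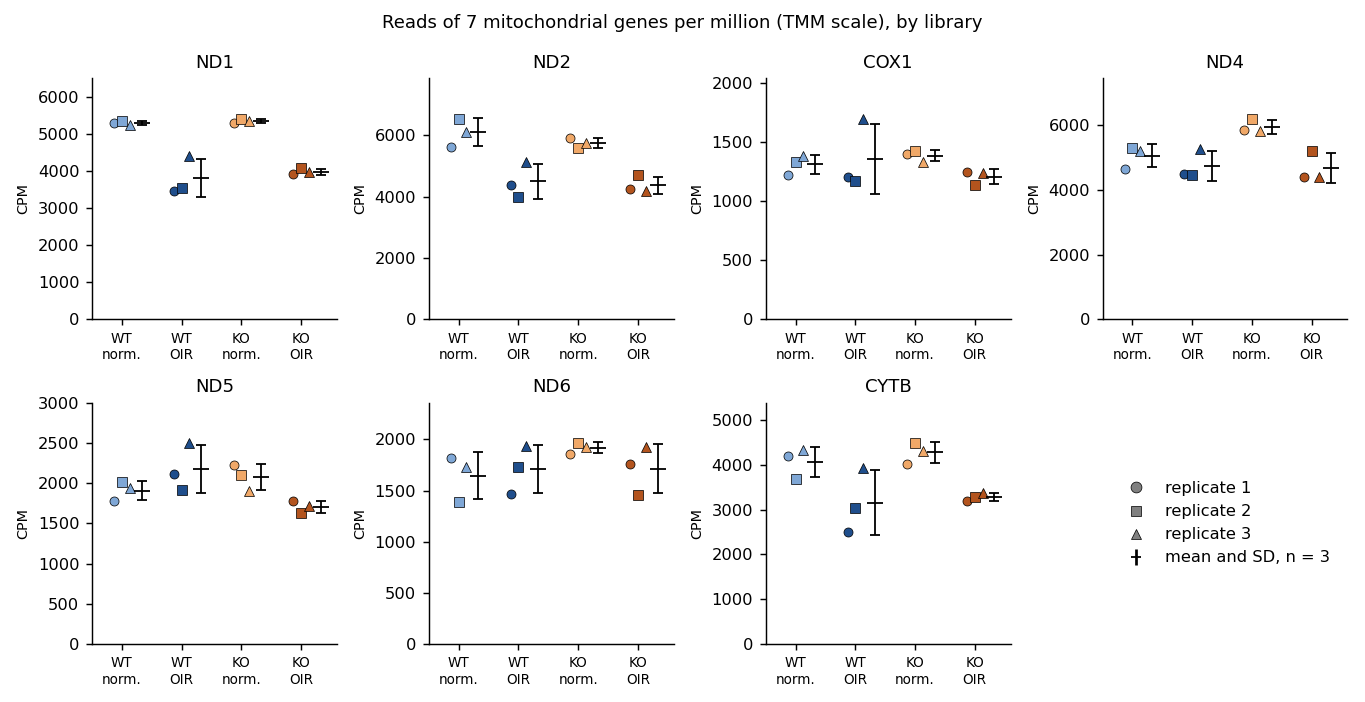
CPM of the 7 genes with reads in each of 12 libraries, on axes that start at 0, with 1 symbol per replicate and the mean and SD of 3 libraries in black. ND1 and ND2 lie lower in OIR under both labels, while ND5 lies lower in OIR among the libraries labelled Casp1 KO and overlaps among those labelled WT.

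**Figure D4:**
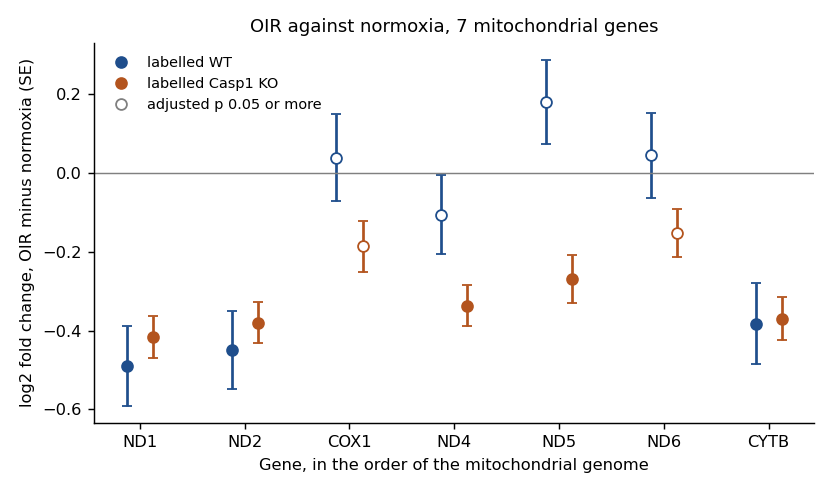
The log2 fold change of OIR against normoxia with its standard error for 7 genes in the order of the mitochondrial genome, blue for libraries labelled WT and orange for those labelled Casp1 KO, filled where the edgeR adjusted p was under 0.05. ND1, ND2 and CYTB sit at similar values under both labels, and ND5 at 0.18 and -0.27.

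A difference in the OIR effect between the labels was called for 1 of the 7, ND5, in the edgeR fit of the interaction to all 12 libraries. The difference, Casp1 KO minus WT, was -0.47 for ND5 (SE 0.12, edgeR adjusted p = 0.0161), where 1.13% of 24484 genes were called, 0.604% higher and 0.527% lower. ND4 had -0.26 (SE 0.11, edgeR adjusted p = 0.374, unadjusted p = 0.0207), COX1 -0.25 (SE 0.13, adjusted p = 0.515) and ND6 -0.22 (SE 0.12, adjusted p = 0.574). They were not called, but lay in the same direction as ND5. ND1, ND2 and CYTB had 0.05, 0.05 and -0.01, each with a SE of 0.11. The ND5 difference stayed negative in all 19 alternatives, from -0.56 to -0.36, and passed the test in 13. It did not pass with the filterByExpr filter (adjusted p = 0.0617), without WT normoxia replicate 1 (0.125) or 3 (0.0677), without Casp1 KO normoxia replicate 1 (0.119) or 2 (0.0532), or without Casp1 KO OIR replicate 2 (0.0609).

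Ratios of 2 members within a library do not depend on how libraries are scaled, and they are given as a description. ND1 had the largest fall of the 7 members in OIR under both labels (log2 fold changes -0.49 and -0.42). A ratio to ND1 therefore rises for any member that fell less, and all ratios to it share its reads. ND5 had 0.335, 0.375 and 0.369 reads per ND1 read in WT normoxia and 0.612, 0.538 and 0.569 in WT OIR. In Casp1 KO normoxia it had 0.419, 0.387 and 0.356, and in Casp1 KO OIR 0.453, 0.400 and 0.433. The WT OIR libraries were above all other 9 libraries in this ratio.

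ND4 per ND1 was 0.879, 0.987 and 0.993 in WT normoxia and 1.29, 1.25 and 1.199 in WT OIR, with no overlap. It was 1.102, 1.145 and 1.08 in Casp1 KO normoxia and 1.12, 1.28 and 1.11 in Casp1 KO OIR. COX1 per ND1 was higher in OIR without overlap under both labels, at 0.230 to 0.263 and 0.329 to 0.385 for WT, and at 0.248 to 0.263 and 0.278 to 0.317 for Casp1 KO. ND2 and CYTB per ND1 overlapped between the conditions under both labels. ND6 per ND1 was 0.343, 0.258 and 0.329 in WT normoxia and 0.422, 0.485 and 0.440 in WT OIR, with no overlap, and it overlapped under the Casp1 KO label (0.350 to 0.362 and 0.357 to 0.485). ND5, ND4, COX1 and ND6 were thus higher against ND1 in every WT OIR library than in any WT normoxia library, and ND2 and CYTB were not.

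**Figure D5:**
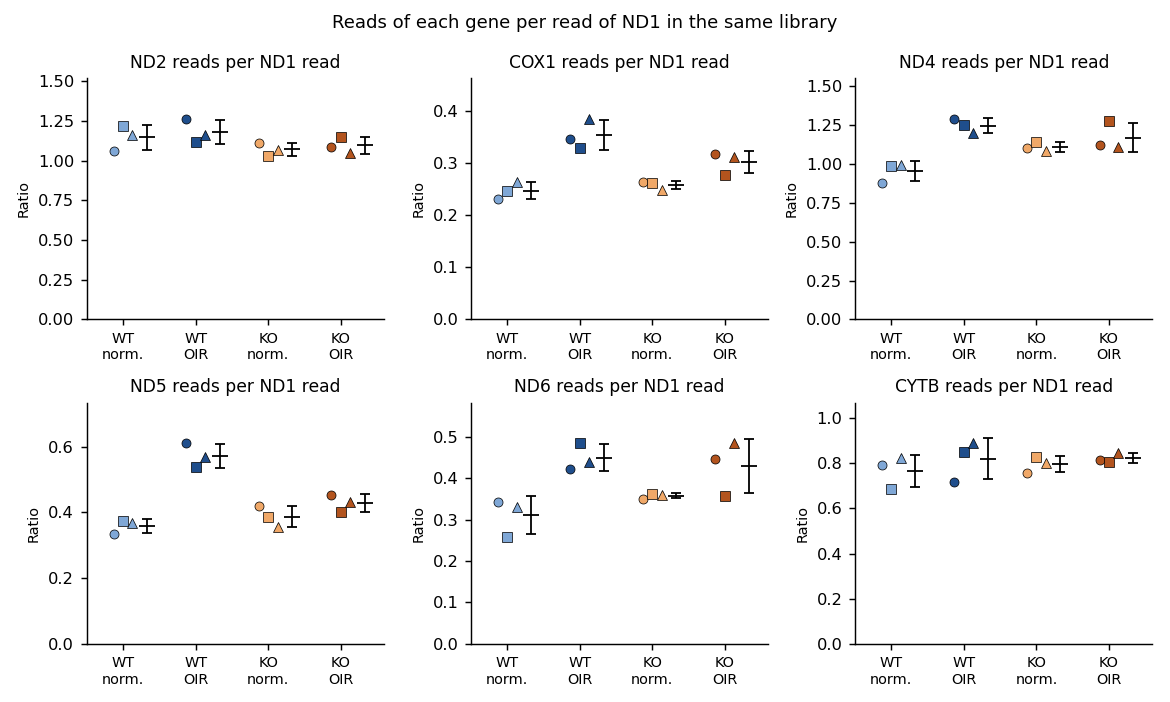
Reads of 6 genes per read of ND1 in the same library, with 1 symbol per replicate and the mean and SD of 3 libraries in black. ND5 per ND1 lies between 0.538 and 0.612 in WT OIR and between 0.335 and 0.453 in the other 9 libraries.

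The order of the members by reads was stable at its lower end. CYTB stood between ND1 and the pair ND5 and ND6, and COX1 last, in all 12 libraries, while ND2 came first in 3 of 3 WT normoxia libraries and ND4 in 3 of 3 WT OIR, 3 of 3 Casp1 KO OIR and 2 of 3 Casp1 KO normoxia libraries. ND5 and ND6 traded places between replicates in every group but WT OIR, where ND5 was higher in 3 of 3 libraries. ND4 had more reads than ND2 within each of the 6 OIR libraries, and their ranges over libraries overlapped, at 4741 ± 469 and 4497 ± 581 CPM in WT and 4676 ± 459 and 4377 ± 280 CPM in Casp1 KO (SD, n = 3 each). Reads come from 3' ends, so these are orders of reads and not of transcripts. The coding sequences of ND5 and ND6 overlap by 14 bases on opposite strands, and the ND5 message is known to run on across the ND6 region. The strand setting of the counting is not given in the sources used here, so reads of the 2 cannot be told apart with certainty. ND6 had 0.686 to 1.12 reads per ND5 read over the 12 libraries.

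Between the labels in normoxia, 2 of the 7 members were higher in Casp1 KO and none lower, against 1.04% of 22480 genes called, 0.476% higher and 0.56% lower. ND4 rose from a mean of 5063 ± 350 CPM in WT to 5963 ± 218 in Casp1 KO (SD, n = 3 each; log2 fold change 0.24, SE 0.05, edgeR adjusted p = 0.000181). ND6 rose from 1646 ± 232 to 1919 ± 52.6 CPM (SD, n = 3 each; log2 fold change 0.23, SE 0.06, edgeR adjusted p = 0.0135). Neither overlapped, where 12.4% of all genes did not. ND4 lost the call when all 12 libraries were fitted together (edgeR adjusted p = 0.235), and ND6 in 6 of 14 alternatives, among them DESeq2 (adjusted p = 0.390) and the edgeR fit without WT normoxia replicate 2 (adjusted p = 0.595). ND1, the best matched member, had 5313 ± 56.7 CPM in WT and 5372 ± 55.3 in Casp1 KO (SD, n = 3 each).

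Between the labels in OIR, edgeR called 0 of the 7 members, 1 had an unadjusted p under 0.05, DESeq2 called 0 and edgeR's newer quasi-likelihood method called 1. In this comparison 0.575% of 22774 genes were called, which became 3.65% without WT OIR replicate 3, or 815 genes in place of 131. The member with the small unadjusted p was ND5, at 2182 ± 298 CPM in WT OIR and 1710 ± 74.3 in Casp1 KO OIR (SD, n = 3 each), which did not overlap, where 11.9% of all genes did not. Its log2 difference was -0.35 (SE 0.11, edgeR adjusted p = 0.117), and it passed the test when all 12 libraries were fitted together (adjusted p = 0.0105) or without WT OIR replicate 2 (adjusted p = 0.0493). CYTB passed it, at 0.26, without WT OIR replicate 3 (adjusted p = 0.0147).

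Spread among replicates was uneven. Over the 7 members, the coefficient of variation in CPM had a median of 13.6% in WT OIR, 6.90% in WT normoxia, 5.22% in Casp1 KO OIR and 3.22% in Casp1 KO normoxia. CYTB and COX1 in WT OIR varied most.

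Nuclear genes encode the partners of the members in the same complexes. Of 83 nuclear genes of the respiratory chain and ATP synthase, 1 rose and 2 fell in WT OIR by edgeR adjusted p, a share of 3.61% that is near the 3.88% of all genes. In Casp1 KO OIR 4 rose and 15 fell, 22.9% beside 4.64% of all genes. Their median log2 difference was -0.13 in WT and -0.12 in Casp1 KO, beside 0.04 and -0.00195 over all genes. Without WT OIR replicate 3 the WT counts were 1 and 17, and without WT normoxia replicate 1 they were 1 and 0. The Casp1 KO total of 19 was 12 without Casp1 KO normoxia replicate 1. With all 12 libraries in 1 fit it was 11, 3 higher and 8 lower, and the WT total was 5.

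Cycs, which encodes cytochrome c, the electron carrier to complex IV, fell under both labels. It went from 55.4 ± 8.64 to 34.3 ± 0.972 CPM in WT and from 55.4 ± 1.85 to 31.6 ± 6.01 in Casp1 KO (SD, n = 3 each), with edgeR adjusted p of 0.00866 and 0.000345. Cox7b, a small nuclear subunit of complex IV, fell by 0.48 and 0.66 on the log2 scale (edgeR adjusted p = 0.0156 and 1.01e-07). Its WT conditions overlapped, with OIR replicate 3 at 169 CPM and normoxia replicate 2 at 167 CPM. The WT calls of both Cycs and Cox7b were lost without WT normoxia replicate 1. Called lower in Casp1 KO OIR were also Atp5f1, Atp5j2 and Atp5k of ATP synthase (log2 fold changes -0.41, -0.33 and -0.32) and Ndufb2, Ndufb5 and Ndufs4 of complex I (-0.37, -0.35 and -0.45). Uqcrb of complex III fell by 0.31 there. None of these genes from Atp5f1 to Uqcrb was called in WT OIR or in the interaction. Their log2 differences in WT were -0.35, -0.13 and -0.14 for Atp5f1, Atp5j2 and Atp5k. They were -0.38, 0.03 and -0.27 for Ndufb2, Ndufb5 and Ndufs4, and -0.37 for Uqcrb.

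Cox4i2, Uqcrc1 and Sdha rose in Casp1 KO OIR. Cox4i2, a form of complex IV subunit 4 known to be induced by low oxygen, was at 25.5, 25.6 and 28.5 CPM in Casp1 KO normoxia and 56.5, 60.0 and 62.1 CPM in OIR (log2 fold change 1.18, edgeR adjusted p = 5.61e-09). In WT it was at 36.0, 31.3 and 39.1 CPM in normoxia and 49.96, 38.3 and 21.99 CPM in OIR, which overlapped. Uqcrc1, a core subunit of complex III, rose by 0.44 on the log2 scale under the Casp1 KO label (edgeR adjusted p = 0.000108) and differed by -0.20 under WT (adjusted p = 0.542). Sdha, of complex II, rose by 0.31 in Casp1 KO (edgeR adjusted p = 0.0286).

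Ndufa4l2, a mitochondrial protein gene known as a hypoxia target, had the largest OIR difference of the named nuclear genes. It had 14, 33 and 1 reads in WT normoxia and 33, 51 and 63 in WT OIR, or 1.39 ± 1.14 and 9.64 ± 1.70 CPM (SD, n = 3 each; edgeR adjusted p = 5.45e-05). In Casp1 KO it went from 0.659 ± 0.225 to 9.16 ± 1.94 CPM (SD, n = 3 each; edgeR adjusted p = 4.30e-07). Bnip3, which encodes a mitophagy receptor, rose by 0.48 and 0.45 on the log2 scale (edgeR adjusted p = 0.0298 and 0.00939). Its Casp1 KO conditions overlapped, with OIR replicate 3 at 90.7 CPM and normoxia replicate 3 at 91.5 CPM. Pdk1, a kinase that shuts off pyruvate dehydrogenase, differed by 0.19 and 0.46 without passing (edgeR adjusted p = 0.732 and 0.270). Of the 9 hypoxia-linked mitochondrial genes, 2 rose in WT and 4 in Casp1 KO and none fell, where 1.58% and 2.61% of all genes were called higher. Ndufa4l2, the 1 riser of the 83 genes in WT, and Cox4i2 are on both lists, so their calls are counted in both.

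The genes that copy, transcribe and stabilise mitochondrial RNA gave few calls. Of 18 genes for mitochondrial DNA copying and transcription, edgeR called 0 in WT OIR, where 3 had an unadjusted p under 0.05, DESeq2 called 0 and the newer method 1. In Casp1 KO OIR edgeR called 1, or 5.56% beside 4.64% of all genes. It was Polg, the mitochondrial DNA polymerase, which rose by 1.14 on the log2 scale (edgeR adjusted p = 0.0114). Polg went from 7.85 ± 1.67 to 17.4 ± 3.17 CPM there and from 16.4 ± 5.52 to 13.9 ± 4.13 in WT (SD, n = 3 each). The WT log2 difference was -0.28 (edgeR adjusted p = 0.689). Tfam, which packages mitochondrial DNA and acts in its transcription, differed by -0.53 in WT and -0.20 in Casp1 KO (edgeR adjusted p = 0.196 and 0.657). Polrmt, the mitochondrial RNA polymerase, differed by -0.16 and -0.24 (adjusted p = 0.857 and 0.729, edgeR). Lrpprc, which stabilises mitochondrial messages, differed by 0.25 and -0.14 (adjusted p = 0.530 and 0.690, edgeR).

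Of 23 genes for mitochondrial RNA processing and stability, edgeR by both methods and DESeq2 called 0 in OIR under either label, with 2 at an unadjusted p under 0.05 in each. Of 77 mitochondrial ribosome genes, edgeR by both methods and DESeq2 called 0 in both, with 4 in WT and 14 in Casp1 KO at an unadjusted p under 0.05. Of 12 biogenesis regulators, edgeR called 1 in WT OIR (8.33%, beside 3.88% of all genes) and 0 in Casp1 KO OIR. It was Sirt1, a deacetylase that acts on Ppargc1a, which rose in WT by 0.61 on the log2 scale (edgeR adjusted p = 0.0197). In Casp1 KO, Sirt1 differed by -0.08 (edgeR adjusted p = 0.833). Ppargc1a itself, the main coactivator of mitochondrial biogenesis, differed by -0.16 and -0.07, and Cox4i1, the common form of subunit 4, by 0.15 and 0.20, with edgeR adjusted p of 0.655 and 0.769 and of 0.603 and 0.139.

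Among 4034 nuclear genes with a mean of at least 50 CPM, 5 tracked the summed members most closely over the 12 libraries by Pearson's r of log2 CPM. They were Apba1 (0.952), Rab6b (0.934), Nell2 (0.932), Calm2 (0.917) and Cox6c (0.911). The 12 points share 4 groups and the same scaling, so the r values are a description. Apba1 was at 114 ± 12.9 and 77.7 ± 20.9 CPM in WT normoxia and OIR, and at 115 ± 5.13 and 80.5 ± 6.34 CPM in Casp1 KO (SD, n = 3 each).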

How the data were processed

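Retinal RNA was extracted with TRIzol, and QuantSeq 3' FWD libraries were read in single 75-base reads. The authors aligned them to mm10 with STAR and tabulated reads with htseq-count. Per the labels the versions were STAR 2.7.5a and HTSeq 0.6.1. The deposited values are whole-number counts of reads per gene, not normalized. The annotation, the strand setting and the treatment of reads with several matches are not given in the sources used here.

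The members and gene lists were chosen with earlier results of these data known. From the counts, edgeR 4.0.16 in R 4.3.3 was run with TMM, genes with at least 1 read in the libraries fitted, glmQLFit and glmQLFTest (older method), and Benjamini-Hochberg adjustment over all genes at 0.05. Each pair of groups was fitted to its 6 libraries and the interaction to all 12. CPM used TMM over all 12. The fits were tested on simulated data. Named nuclear genes were the 3 with the smallest p per list and comparison among those called, and 9 set by name. Pseudogene identity was searched as exact 75-base windows among GENCODE vM21 transcripts. Alternatives were other scalings, DESeq2 1.42.0, a newer quasi-likelihood method, filterByExpr, all libraries together, blocking on replicate number and each library left out. For the 83 nuclear genes they were added after the data were seen.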

Additional observations from a re-analysis of the deposited data

Results flagged for a closer look

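3 results stood out because the effect of OIR differed between the labels in the edgeR interaction fit, where 1.13% of all genes were called. ND5 had a difference of -0.47 on the log2 scale, Casp1 KO minus WT (edgeR adjusted p = 0.0161). 2 of 3 WT OIR libraries were above all 3 in WT normoxia, and all 3 Casp1 KO OIR libraries were below all 3 in Casp1 KO normoxia. Cox4i2 had a difference of 1.12 (edgeR adjusted p = 0.00702), with no overlap between conditions under the Casp1 KO label and overlap under WT. Uqcrc1 had a difference of 0.61 (edgeR adjusted p = 0.0181). The Muller glia markers moved in opposite directions under the labels, and retinal pigment epithelium and lens sums were higher in Casp1 KO OIR than in any other group, as given above. In the interaction 5 of 8 Muller glia, 3 of 7 amacrine, 2 of 5 pigment epithelium and 3 of 6 lens markers were called higher. The part of these markers in the differences was not tested. The Casp1 reads go against the genotype labels, so the direction of each difference is that of the labels.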

How the results depend on the processing

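Of 525 refits of single members, 472 kept direction and side of the threshold, 18 lost a call, 13 gained one and 22 without a call changed sign. No called member changed sign. In WT OIR the number of members called was 3, and 2 to 4 with single libraries left out, and in Casp1 KO OIR it was 5, and 5 to 7. In normoxia between the labels, 2 became 1 with DESeq2 or filterByExpr, 0 with all 12 libraries together and 1 to 2 with single libraries left out. In OIR between the labels, 0 became 1 with the newer quasi-likelihood method or all 12 libraries, and 0 to 1 with single libraries left out. The interaction's 1 became 0 with filterByExpr and 0 to 1 with single libraries left out. The cause of these changes was not tested.

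The summed share without ND2 was 1.92% in WT normoxia, 1.70% in WT OIR, 2.11% in Casp1 KO normoxia and 1.66% in Casp1 KO OIR, lower by construction. Against the reads of all other genes it was 2.59%, 2.20%, 2.76% and 2.14% in that order. With single libraries left out it ran from 2.49% to 2.56%, 2.01% to 2.23%, 2.64% to 2.704% and 2.07% to 2.12%.

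In fits with a replicate block, the members called were 3 in WT OIR, 6 in Casp1 KO OIR, 2 and 0 between the labels in normoxia and OIR, and 1 in the interaction. Deviations of same-numbered libraries correlated by -0.0606 to 0.0873 in 12 pairs, and those of libraries with different numbers by -0.104 to 0.137. The labels do not say whether samples were paired, and with 3 libraries per group this check cannot settle it. COX2, COX3 and ATP6, with at most 8 reads in a library, were too low for a fold, the deepest library included.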
